A study of Arabidopsis thaliana with 12 samples.

Results

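The comparison described here sets chitin receptor mutant seedlings given chitooctaose against wild type Col-0 seedlings given chitooctaose. Its members were chosen by the treatment and genotype in the sample labels: the 3 mutant chitooctaose arrays and the 3 wild type chitooctaose arrays, which are 6 of the 12 arrays of the series. Chitooctaose is a chain of N-acetylglucosamine units released from chitin, a structural polymer of fungal walls. All seedlings were Arabidopsis thaliana in the Col-0 background, kept hydroponically in MS medium under constant light at 23 °C and used whole at 14 days. Chitooctaose was added to 1 uM (the labels write "um", read here as micromolar) for 30 minutes. The 6 other arrays, 3 of the mutant and 3 of wild type given water for 30 minutes, served to show which genotype differences were present without chitooctaose. The labels say that the mutation lies in the chitin receptor and name neither the gene nor the allele, so it is not known here whether 1 or several mutant lines were used. In whole seedlings, fewer cells of a type and less RNA per cell cannot be told apart.

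Plants detect chitin through receptor-like kinases that carry LysM domains outside the cell, and the series title names a receptor of this class. In Arabidopsis the LysM receptor kinase CERK1 is required for responses to chitin fragments. Binding is followed within minutes by calcium influx, activation of MAP kinases and phosphorylation of cytoplasmic kinases, and then by a fast wave of transcription that includes WRKY and zinc finger factors, calmodulin-like proteins, E3 ubiquitin ligases, intracellular immune receptors and enzymes that act on the wall. Comparing the genotypes after the same elicitor asks how far these transcripts differ when the receptor is mutated.

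With controls left out, 22746 probe sets were tested, each with 1 intensity on each array. Array medians lay between 177.5 and 200.5, and within a group arrays correlated at r = 0.984 to 0.993 over the probe sets. Wild type chitooctaose replicate 1 stood apart, with a residual SD of 0.210 on the log2 scale against 0.142 to 0.182 for the others. The labels do not name CERK1 as the mutated gene. No probe set is named for CERK1 either, so the genotype labels were not checked by its transcript. Fold changes below are the mutant mean minus the wild type mean of log2(intensity + 16), which understates the change of dim genes. Errors after ± are standard errors from limma with 3 arrays in each group, unless marked SD. A probe set is called when its Benjamini-Hochberg adjusted p is under 0.05.

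After chitooctaose, calls went both ways, but most differences of at least 2-fold were transcripts lower in the mutant. Of the 22746 probe sets, 3929 (17.3%) were called. Of these, 1768 (7.77%) were higher in the mutant and 2161 (9.5%) were lower, with a median fold change of 0.46 among the higher and -0.62 among the lower. The median over all probe sets was 0.00. The 3 mutant arrays lay all above or all below the 3 wild type arrays for 3815 of the 3929, against 6531 (28.7%) of all probe sets tested. By the number of calls the directions were close, at 45.0% higher, but quantile normalization gave 3584 higher and 2128 lower calls, or 62.7% higher. Without wild type chitooctaose replicate 1 there were 1540 higher and 2823 lower calls.

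Size separated the directions. At least 2-fold lower in the mutant were 671 probe sets (2.95%), against 157 (0.69%) at least 2-fold higher. At least 4-fold lower were 259 (1.14%), against 24 (0.106%) at least 4-fold higher. At 8-fold the counts were 82 lower and 9 higher, and at 16-fold 30 lower and 4 higher. Called values spanned -6.27 to 5.29. Without each of the 6 arrays in turn, between 654 and 724 probe sets were at least 2-fold lower and between 141 and 166 at least 2-fold higher, so the larger number of strong decreases held in each of these fits.

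**Figure D1:**
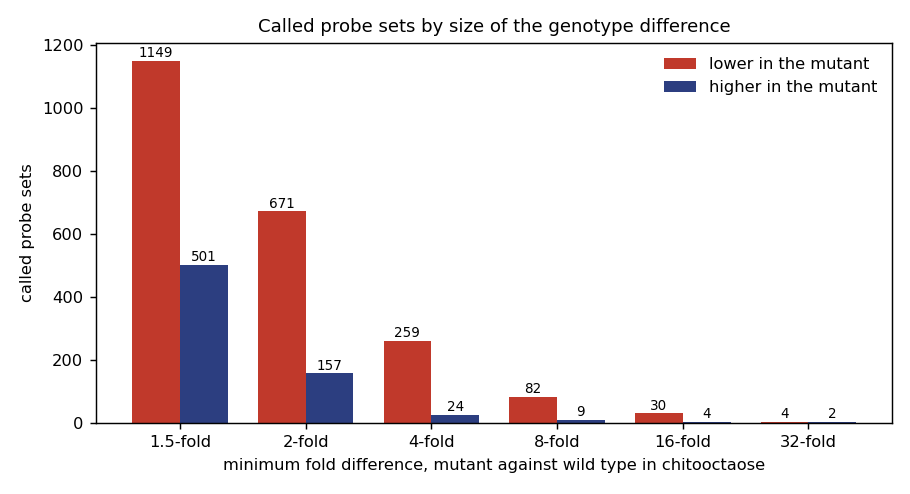
Called probe sets (vertical axis, number) that differ between mutant and wild type in chitooctaose by at least the fold on the horizontal axis, lower in the mutant in red and higher in blue. The counts are 671 lower and 157 higher at 2-fold, and 30 lower and 4 higher at 16-fold.

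The named transcripts furthest below wild type included transcription factors, a phosphatase and a gene of immune receptor type. AT5G46295 gave intensities of 20.2, 10.8 and 15.6 in the mutant and 2192, 2494 and 2536 in wild type, a change of -6.27 ± 0.15 (adjusted p = 5.9e-15). WRKY53, a WRKY transcription factor active in defence and senescence, gave 53.1, 46.8 and 49.1 in the mutant and 2684, 2506 and 2269 in wild type (-5.25 ± 0.12, adjusted p = 3.1e-15). AT1G07160, a protein phosphatase 2C, gave 41.9, 27.3 and 20.5 in the mutant and 1715, 1846 and 1895 in wild type (-5.35 ± 0.20, adjusted p = 1.4e-12). For these 3 genes the brightest mutant array was far dimmer than the dimmest wild type array. In water AT5G46295 (-1.64 ± 0.15) and WRKY53 (-0.44 ± 0.12) were also called lower in the mutant, and AT1G07160 was not called. STZ, a C2H2 zinc finger repressor of stress genes, gave 235, 269 and 255 in the mutant and 6189, 6424 and 5581 in wild type (-4.50 ± 0.09, adjusted p = 1.1e-15). AT1G66090, which encodes a protein with TIR and nucleotide-binding domains, gave 97.5, 102 and 75 in the mutant and 2723, 3130 and 2747 in wild type (-4.75 ± 0.11, adjusted p = 4.8e-15). For both genes the groups did not overlap, which was a condition for a place among the lowest named genes.

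Signals, proteases and further regulators completed the 14 named genes with the lowest fold changes. AT4G37290, the precursor of the secreted peptide PIP2, had 12.9, 17 and 11 in the mutant and 459, 692 and 651 in wild type (-4.36 ± 0.19, adjusted p = 1.4e-11). AT1G24140, a matrix metalloproteinase of the cell surface, had 51.1, 52.4 and 36.3 in the mutant and 1139, 1165 and 1181 in wild type (-4.24 ± 0.17, adjusted p = 4.8e-12). AT3G12910, a NAC domain factor, had 23.2, 21.6 and 31.1 in the mutant and 747, 788 and 830 in wild type (-4.29 ± 0.19, adjusted p = 9.7e-12). For each of these 3 genes all mutant arrays lay below all wild type arrays, which was a condition for a place among the 14. The armadillo repeat gene AT3G02840 (-4.39 ± 0.13), the acetyltransferase AT2G32030 (-4.34 ± 0.10), AR781 (-4.46 ± 0.10), AT5G05300 (-4.53 ± 0.13), AT1G05575 (-4.51 ± 0.09) and AT2G18210 (-4.25 ± 0.20) complete the 14. None of the 14 lost its call in the fits without 1 of the 6 arrays. Another 9 called probe sets that are not tied to 1 gene were lower than the last of these 14, down to -5.07.

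**Figure D2:**
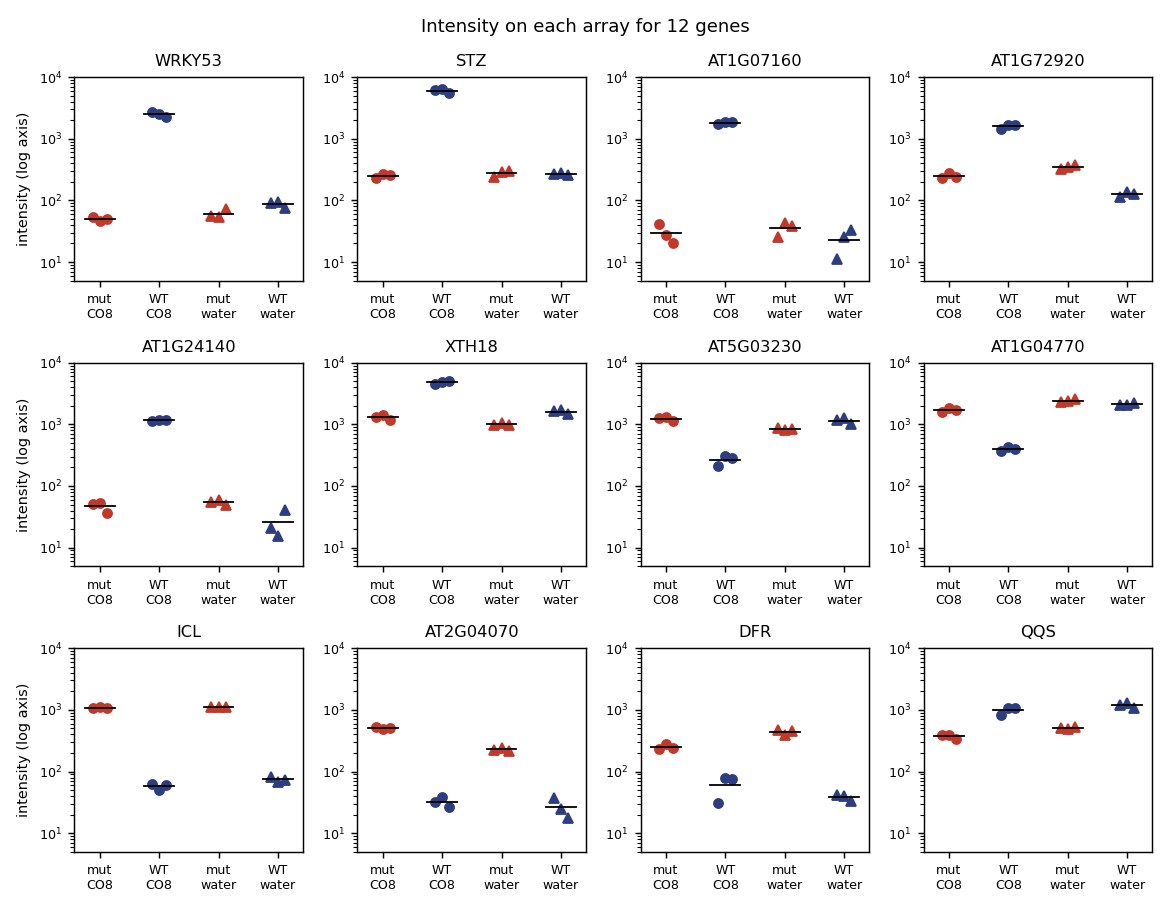
Intensity (vertical, log axis) on each of the 12 arrays for 12 genes, with mutant in red and wild type in blue; circles are chitooctaose (CO8) and triangles water, and the horizontal lines are means of 3. In the elicited mutant WRKY53 averages 49.7 and STZ 253, against 2486 and 6064 in elicited wild type.

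Seen as a set, the 259 probe sets at least 4-fold lower in the elicited mutant were chosen by this contrast, so their levels with chitooctaose are a description. Their median intensity was 144, 157 and 140 on the 3 mutant arrays and 1139, 1338 and 1297 on the 3 wild type arrays. On the water arrays, which entered the choice only through the shared estimate of spread, it was 155, 159 and 168 in the mutant and 163, 169 and 172 in wild type. The elicited mutant thus had levels near those of both genotypes in water, while elicited wild type stood apart. Their median genotype difference in water was -0.14, with quartiles of -0.33 and 0.10. There 27 (10.4%) were called higher in the mutant and 60 (23.2%) lower, against 4.03% higher and 6.3% lower among all probe sets. Set against unelicited wild type, the elicited mutant differed by a median of -0.22, and 245 of the 259 lay within 1 log2 unit. The same count was not made over all probe sets, and the mutant values entered the choice of the 259, so it is a description only. Wild type chitooctaose replicate 1 was the brightest of its group for 27 of the 259 (10.4%), against 23.5% of all probe sets. Without that array or any other of the 6, between 248 and 280 probe sets were at least 4-fold lower.

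**Figure D3:**
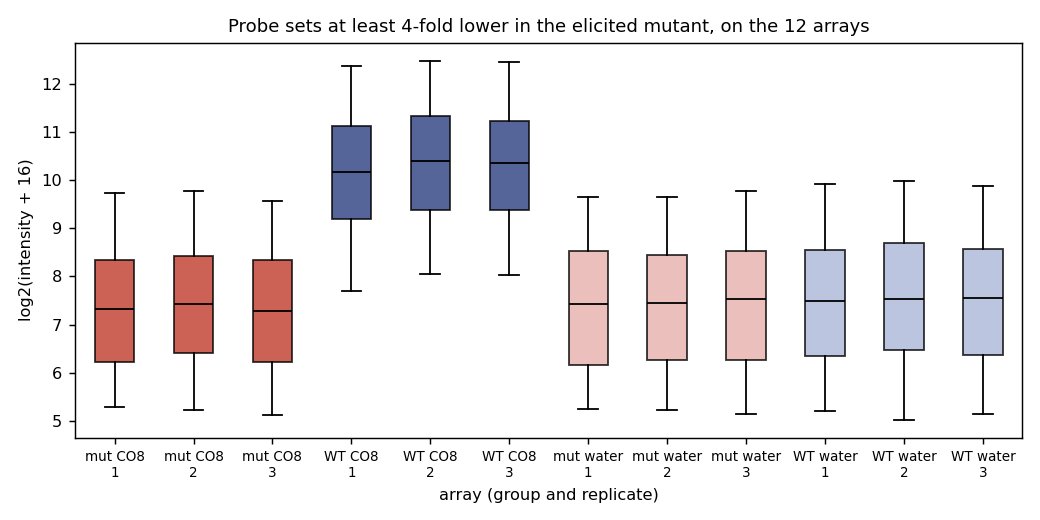
Log2(intensity + 16) of the 259 probe sets at least 4-fold lower in the elicited mutant (vertical axis) on each of the 12 arrays, with boxes at the quartiles, lines at the medians and whiskers from the 5th to the 95th percentile; CO8 is chitooctaose. The 3 elicited wild type arrays are the ones that stand high, with median intensities of 1139 to 1338.

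Gene families were read against the 13350 genes that have a probe set of their own. Among those, 918 (6.88%) were higher in the mutant and 1149 (8.61%) lower, with a median fold change of 0.00. For family counts in water the shares to set beside them are those over all probe sets, 4.03% higher and 6.3% lower in the mutant. The array annotation covers the families in part, so 205 of 1468 listed genes were measured, in 27 of 29 lists. Families are described from the cell surface inward.

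Among pattern receptors and their partners, 2 of the 4 measured genes were lower in the mutant by limma and none higher (0 also at an unadjusted p under 0.05), with a median of -0.18. BIK1, the cytoplasmic kinase that relays signals from several immune receptors, had 918, 958 and 886 in the mutant and 1822, 2097 and 2239 in wild type (-1.14 ± 0.08, adjusted p = 6.9e-09). The groups did not overlap. FER, a receptor kinase of growth and immunity, was lower by less (-0.38 ± 0.07, adjusted p = 0.00059). In water FER was lower in the mutant too (-0.28), with no called difference between treatments, while BIK1 was higher (0.27). EFR, the receptor for bacterial elongation factor Tu, averaged 121 ± 5.20 in the mutant and 121 ± 23.2 in wild type (SD, n = 3 each) and was not called (0.01 ± 0.18).

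All 6 measured TIR-domain genes were lower in the mutant, with a median of -2.0. TIR-domain proteins act as intracellular immune receptors or as their short relatives. After AT1G66090, the lowest was AT1G72900, with 412, 423 and 339 in the mutant and 2687, 2759 and 2270 in wild type (-2.67 ± 0.11, adjusted p = 2.9e-12). AT1G72920 had 235, 276 and 237 in the mutant and 1427, 1664 and 1662 in wild type (-2.59 ± 0.10, adjusted p = 2.1e-12). AT1G57630 had 150, 174 and 133 in the mutant and 376, 490 and 422 in wild type (-1.40 ± 0.13, adjusted p = 2.6e-07). None of these groups overlapped. The 2 other members, AT1G72950 (-1.17 ± 0.11) and AT1G72940 (-0.95 ± 0.09), were called too. In water 4 of the 6 were instead higher in the mutant: AT1G72920 by 1.37, AT1G57630 by 1.06, AT1G72940 by 0.56 and AT1G72900 by 0.38. AT1G72900, AT1G72920, AT1G72940 and AT1G72950 lie close together by gene order.

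Of 10 measured genes for calcium sensors, kinases and pumps, 5 were lower in the mutant, 2 higher and 3 not called, with a median of -0.47. CML37, a calmodulin-like protein, had 39.0, 40.1 and 18.6 in the mutant and 774, 895 and 871 in wild type (-4.18 ± 0.18, adjusted p = 8.7e-12). AT3G01830 had 45.4, 59.3 and 44.5 in the mutant and 976, 1028 and 1073 in wild type (-3.99 ± 0.14, adjusted p = 6.1e-13). CML42 (-2.53 ± 0.12), CML23 (-1.84 ± 0.11) and CML38 (-0.64 ± 0.08) were the other 3 that fell. CML41, a calmodulin-like protein of plasmodesmata, went the other way, at 162 ± 34.1 in the mutant and 65.2 ± 17.3 in wild type (SD, n = 3 each), a change of 1.14 ± 0.16 (adjusted p = 6.2e-05). AT3G47480 was also higher (0.46 ± 0.11, adjusted p = 0.0087). Both were higher in the mutant in water as well, by 2.29 for CML41 and 0.98 for AT3G47480.

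Transcription factor families held decreases and a few increases. WRKY factors, which bind W boxes in defence promoters, had 3 lower and 1 higher of 7 measured, with a median of -0.47. After WRKY53 came WRKY22, with 383, 385 and 383 in the mutant and 2267, 2125 and 1803 in wild type (-2.37 ± 0.10, adjusted p = 7.2e-12). WRKY6 had 620, 563 and 585 in the mutant and 1206, 1563 and 1512 in wild type (-1.25 ± 0.09, adjusted p = 1.6e-08). The 1 higher member, ZAP1, was near the threshold at 0.28 ± 0.09 (adjusted p = 0.045). Its call was lost without each of the 3 mutant arrays and without wild type replicates 1 and 2, with adjusted p from 0.057 to 0.13.

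The AP2/ERF family, which includes ethylene response factors, was split among its 3 measured genes. AT1G33760 was lower, with 43.2, 30.7 and 30.6 in the mutant and 160, 200 and 224 in wild type (-2.05 ± 0.19, adjusted p = 3.1e-07). AT5G61590, known as DEWAX, a repressor of wax biosynthesis, was higher, with 3548, 3525 and 3233 in the mutant and 1151, 1309 and 1276 in wild type (1.45 ± 0.07, adjusted p = 2.3e-11). ORA47 was not called (-0.02 ± 0.15). Of the 2 C2H2 repressors measured, STZ was lower and AT2G28200 higher, the second with 300, 306 and 329 in the mutant and 136, 136 and 135 in wild type (1.11 ± 0.09, adjusted p = 2.8e-08). Of 2 NAC factors, NAC014 was not called (0.21 ± 0.11).

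U-box ligases that restrain immune signalling were also lower. In background terms, PUB22, PUB23 and PUB24 tag immune components for turnover and dampen pattern-triggered responses. PUB23 had 292, 272 and 281 in the mutant and 2619, 2883 and 3119 in wild type (-3.28 ± 0.09, adjusted p = 2.8e-14). PUB24 had 77.8, 77.1 and 86.7 in the mutant and 721, 853 and 741 in wild type (-3.03 ± 0.10, adjusted p = 2.8e-13). PUB22 had 228, 275 and 215 in the mutant and 1253, 1504 and 1478 in wild type (-2.48 ± 0.10, adjusted p = 4.3e-12). All 3 were separated from wild type on every array. In the list of U-box and RING ligases 5 of 14 were lower and 1 higher, with a median of -0.31. The others were PUB25 (-1.07 ± 0.10), RING1 (-0.34 ± 0.10) and, higher in the mutant, ATL8 (0.47 ± 0.12, adjusted p = 0.0098). In water RING1 was higher in the mutant by 1.23 and ATL8 lower, at -1.07. Of the 2 phosphatases 2C measured, PIA1 was not called (0.26 ± 0.12), while AT1G07160 was among the lowest genes of all.

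Secreted and oxidising enzymes were next. Berberine bridge-like oxidoreductases, which oxidise plant metabolites and wall fragments, had 6 lower and none higher of 12 measured, with a median of -0.43 and 1 higher at an unadjusted limma p under 0.05. The lowest, AT1G26380, had 101, 111 and 100 in the mutant and 783, 858 and 907 in wild type (-2.85 ± 0.11, adjusted p = 3.2e-12). AT1G26420 (-1.74 ± 0.20, adjusted p = 5.0e-06), AT4G20830 (-1.63 ± 0.19, adjusted p = 4.5e-06) and AT5G44440 (-1.03 ± 0.19, adjusted p = 0.00063) followed. In water 4 of the 12 were instead called higher in the mutant, AT1G26420 among them (0.71), and 1 lower, with a median of 0.18. Of 15 chitinases, enzymes that cut chitin, 4 were lower and 1 higher, with a median of -0.21. AT1G02360 had 299, 300 and 295 in the mutant and 1234, 1562 and 1529 in wild type (-2.21 ± 0.09, adjusted p = 7.2e-12), and AT4G01700 had 295, 284 and 274 in the mutant and 1017, 1262 and 1188 in wild type (-1.96 ± 0.10, adjusted p = 4.9e-11). AT2G43590 (-0.67 ± 0.07) and AT2G43610 (-0.56 ± 0.08) were lower by less. CHI, the chitinase at AT2G43570, was higher, with 815, 769 and 656 in the mutant and 305, 328 and 273 in wild type (1.26 ± 0.12, adjusted p = 2.6e-07), and by 1.20 in water. AT2G43570, AT2G43590 and AT2G43610 are near neighbours of 1 family, and cross-hybridisation between related sequences was not tested.

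Of 27 wall remodelling genes, 5 were lower and none higher by limma, with a median of 0.05 and 2 higher at an unadjusted p under 0.05. XTH18, a xyloglucan endotransglucosylase that cuts and rejoins wall polymers, had 1321, 1393 and 1174 in the mutant and 4516, 4849 and 5060 in wild type (-1.88 ± 0.08, adjusted p = 7.4e-12). XTH19 had 1220, 1227 and 1056 in the mutant and 2659, 2930 and 3093 in wild type (-1.30 ± 0.08, adjusted p = 9.0e-10). The expansin-like genes EXLA3 (-1.55 ± 0.15) and EXLA1 (-0.57 ± 0.10) and the transglucosylase XTH20 (-0.40 ± 0.10) were also lower. All 5 were lower in the mutant in water too. Cytochromes P450 had 3 lower and none higher of 22, with a median of 0.02 and 2 higher at an unadjusted p under 0.05, led by CYP71B5 (-1.15 ± 0.10) and CYP71B6 (-0.41 ± 0.08). The third, CYP84A4 (-0.59 ± 0.15), lost its call without mutant replicate 3 (adjusted p = 0.058). Class III peroxidases had 3 lower of 8 and a median of -0.06: AT1G49570 (-0.69 ± 0.10), AT5G64120 (-0.50 ± 0.07) and Prx37 (-0.23 ± 0.06). These 3 were lower in the mutant in water too, at -1.32, -0.26 and -0.23. Prx37 lost its call without mutant replicate 1 (adjusted p = 0.090) and without wild type replicate 3 (adjusted p = 0.059), and quantile normalization took it to -0.098 (adjusted p = 0.30).

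Hormone genes moved both ways. Of 13 auxin genes, 5 were higher and 1 lower, with a median within 0.01 of 0. WAG2, a kinase that promotes auxin transport, had 257, 245 and 220 in the mutant and 98.9, 89.2 and 107 in wild type (1.17 ± 0.10, adjusted p = 1.2e-07). GH3.3, which conjugates auxin to amino acids, had 507, 597 and 550 in the mutant and 257, 293 and 242 in wild type (1.02 ± 0.09, adjusted p = 1.1e-07). GH3.17 (0.39 ± 0.09), IAA29 (0.44 ± 0.14) and IAA18 (0.44 ± 0.14) were the other 3. IAA18 lost its call without mutant replicate 2 or without wild type replicates 1 or 2 (adjusted p from 0.075 to 0.18). WES1, another conjugating enzyme, was lower, with 659, 640 and 462 in the mutant and 1069, 1352 and 1370 in wild type (-1.09 ± 0.12, adjusted p = 3.1e-06). WES1 was lower in the mutant in water too, at -1.42, and no difference between treatments was called (0.32 ± 0.17). Of 2 jasmonate genes 1 was called. PDF1.2, the defensin used as a marker of jasmonate and ethylene signalling, was higher, with 213, 220 and 256 in the mutant and 108, 105 and 121 in wild type (0.94 ± 0.11, adjusted p = 7.8e-06). It was lower in the mutant in water, at -0.47. SAG101, a lipase-like partner of EDS1 in immunity, was lower (-0.59 ± 0.16, adjusted p = 0.017) but lost the call without mutant replicate 1 or without wild type replicates 2 or 3 (adjusted p from 0.079 to 0.092).

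**Figure D4:**
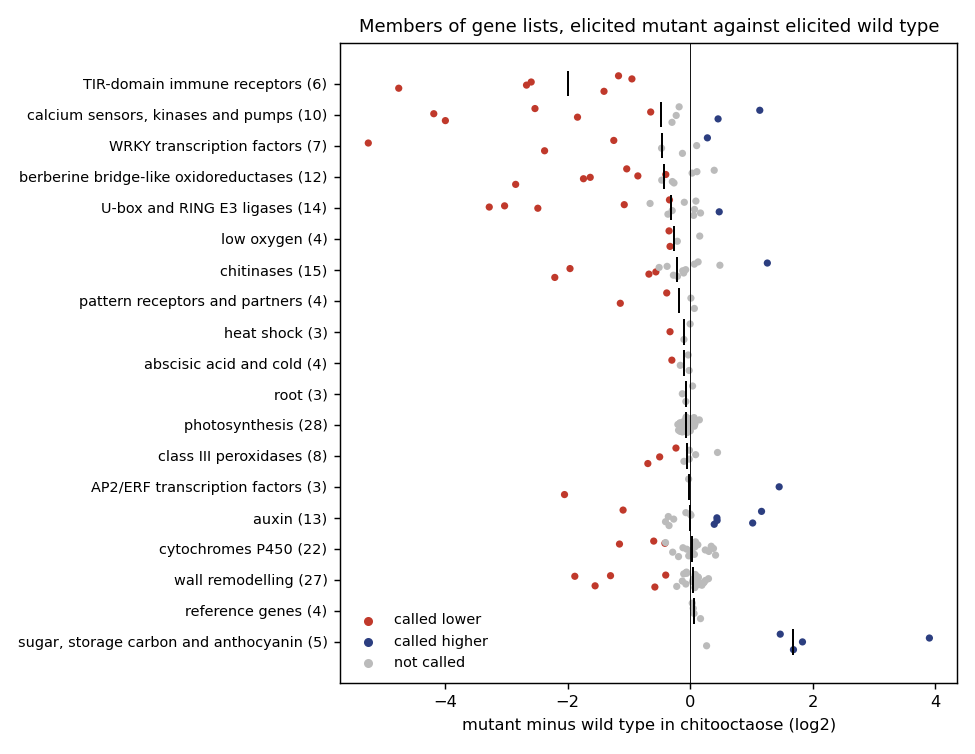
Mutant minus wild type in chitooctaose (horizontal axis, log2) for every measured member of the lists with at least 3 members, 1 list per line with its number of members in brackets. Red points were called lower, blue called higher and grey not called, and the black ticks are list medians; TIR-domain genes lie furthest left (-2.0) and the sugar, storage carbon and anthocyanin genes furthest right (1.69).

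Several families gave few or no calls. None of 28 photosynthesis genes, 20 encoded in the chloroplast and 8 in the nucleus, was called by limma, 4 had an unadjusted p under 0.05, and their fold changes lay between -0.20 and 0.15. Without wild type chitooctaose replicate 1, 4 of the 28 were called, and 2 were called under quantile normalization or median centring. Their mean intensities ran from 587 to 14738 in the mutant and from 619 to 15548 in wild type, so green tissue was well represented in both. Root genes were present too: PYK10, a root beta-glucosidase, averaged 9793 ± 414 in the mutant and 9531 ± 625 in wild type (SD, n = 3 each) and was not called. EXPA7 (-0.13 ± 0.12) and EXPA18 (-0.07 ± 0.11), expansins of root hairs, were not called either, whereas in water they were lower in the mutant, at -0.65 and -0.62. The reference genes (4 measured), MAP kinases (2), GI of the clock and EIN3 of ethylene signalling gave no call by limma with all arrays, with GI and EIN3 alone under an unadjusted p of 0.05, and 2 reference genes were called under quantile normalization. EIN3 was called without wild type chitooctaose replicate 1 (-0.34, adjusted p = 0.00071). GI was called without wild type chitooctaose replicate 3 (-0.32, adjusted p = 0.048). Of 4 low oxygen genes (median -0.27), PDC2 (-0.34 ± 0.06) and AT3G10020 (-0.33 ± 0.07) were lower. Of 3 heat shock genes 1 was called, and of 4 genes for abscisic acid and cold 1, both lists with a median of -0.10. The heat shock gene AT5G48570 (-0.33 ± 0.11, adjusted p = 0.045) lost its call without mutant replicates 1 or 2 or wild type replicates 2 or 3 (adjusted p from 0.051 to 0.20). The cold-response gene COR47 (-0.30 ± 0.09, adjusted p = 0.033) lost its call without mutant replicate 3 or wild type replicates 2 or 3 (adjusted p from 0.10 to 0.16). With only the groups compared in the fit, ZAP1, IAA18, SAG101, Prx37, AT5G48570 and COR47 were not called either (adjusted p from 0.081 to 0.12).

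The transcripts furthest above wild type in the elicited mutant had other roles. ICL, isocitrate lyase of the glyoxylate cycle that turns stored lipid into sugar, had 1062, 1130 and 1082 in the mutant and 63.4, 51.1 and 60.0 in wild type, a change of 3.90 ± 0.09 (adjusted p = 4.3e-15). AT2G04070, a MATE-type transporter, had 525, 493 and 504 in the mutant and 32.4, 39.1 and 26.3 in wild type (3.44 ± 0.15, adjusted p = 8.1e-12). AT4G17660, a protein kinase, had 295, 323 and 290 in the mutant and 6.56, 22.2 and 25.3 in wild type (3.28 ± 0.25, adjusted p = 2.0e-08). Each was several times brighter on every mutant array than on any wild type array, though groups without overlap were a condition of this choice. AT1G80130, a tetratricopeptide repeat gene, had 1243, 1229 and 1145 in the mutant and 251, 227 and 250 in wild type (2.24 ± 0.08, adjusted p = 5.2e-13). AT1G17960, a threonyl-tRNA synthetase, had 195, 207 and 239 in the mutant and 29.2, 30.1 and 50.7 in wild type (2.14 ± 0.17, adjusted p = 4.5e-08). The remaining genes of the 10 highest were AT1G19960 (2.34 ± 0.14), AT5G03230 (2.16 ± 0.12), AT1G04770 (2.06 ± 0.08), the lectin-like AT5G03350 (1.92 ± 0.12) and AT2G04050 (1.87 ± 0.13), a second MATE-type gene. None of the 10 lost its call without any 1 of the 6 arrays. Another 17 called probe sets not tied to 1 gene were higher than the last of these 10, up to 5.29.

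Whether these differences were already there in water was asked with the 6 water arrays. The group means of the 2 comparisons share no arrays, while the estimate of spread was taken over all 12. In water 2351 probe sets (10.3%) were called, 917 (4.03%) higher in the mutant and 1434 (6.3%) lower. Of the 1768 higher with chitooctaose, 331 (18.7%) were also higher in water, 94 (5.32%) were lower there and 1343 (76.0%) were not called. Of the 2161 lower with chitooctaose, 517 (23.9%) were also lower in water, 124 (5.74%) were higher there and 1520 (70.3%) were not called. Across all probe sets the genotype differences of the 2 treatments correlated with r = 0.25, given as a description since probe sets share arrays. A direct test of the change in genotype difference between treatments called 2565 probe sets (11.3%), 1060 (4.66%) with a higher value in chitooctaose and 1505 (6.62%) with a lower one. That test includes the chitooctaose arrays, so its overlap with the chitooctaose calls is no independent support.

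The directions differed most in this respect among the strongest changes. Of the 671 probe sets at least 2-fold lower, 143 (21.3%) were also called lower in water, and of the 157 at least 2-fold higher 99 (63.1%) were also called higher in water. At 4-fold the counts were 60 of 259 (23.2%) and 19 of 24 (79.2%), and at 8-fold 18 of 82 (22.0%) and 9 of 9. The median genotype difference in water was -0.14 for those at least 2-fold lower and 0.72 for those at least 2-fold higher. The difference between treatments was called, with the lower value in chitooctaose, for 647 of the 671 and all 259 at 4-fold. It was called with the higher value in chitooctaose for 78 of the 157 and 11 of the 24. Between the directions these shares were compared without a test.

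**Figure D5:**
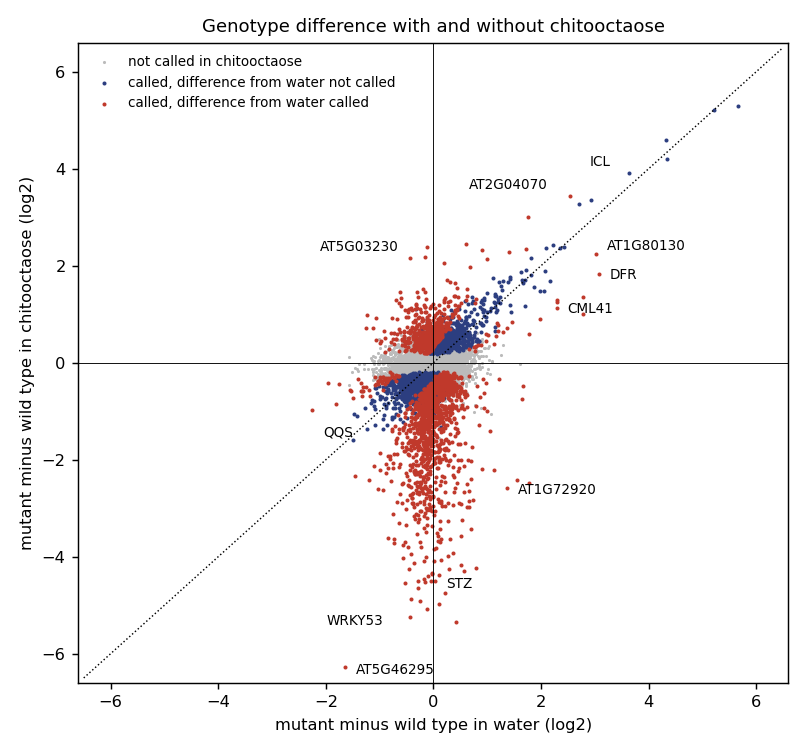
Mutant minus wild type in chitooctaose (vertical, log2) against the same in water (horizontal, log2) for the 22746 probe sets; the dotted line marks equal differences. Most strong decreases lie on a vertical band near 0 in water, such as STZ at -4.50 with chitooctaose and 0.03 in water. The lowest named gene, AT5G46295, is at -6.27 with chitooctaose and -1.64 in water. ICL lies near the dotted line at 3.90 and 3.64.

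Among genes higher in the mutant under both treatments with no called difference between them, ICL had the highest value. In water ICL had 1114, 1097 and 1115 in the mutant and 81.0, 68.2 and 73.9 in wild type (3.64 ± 0.09), and the 2 differences were apart by 0.26 ± 0.13 (adjusted p = 0.23). AT4G17660 differed by 2.70 in water, AT5G03350 by 1.73 and AT2G04050 by 1.62. The RING-type gene AT5G60250 was higher by 1.82 ± 0.15 with chitooctaose and 1.81 in water, and the ATPase AT3G28540 by 1.76 ± 0.13 and 1.43. These 6 genes were chosen for having no called difference between treatments, which does not make the 2 differences equal. Of 5 measured genes for sugar, storage carbon and anthocyanin, 4 were higher in the mutant with chitooctaose and the same 4 in water. Their median was 1.69 with chitooctaose and 2.17 in water. APL3, a subunit of the first committed enzyme of starch synthesis, was higher by 1.69 ± 0.16 and 2.17, and the sugar transporter SAG29 by 1.47 ± 0.15 and 2.06. DFR, an enzyme of anthocyanin synthesis, had 231, 277 and 237 in the mutant and 31.1, 79.1 and 74.4 in wild type with chitooctaose (1.83 ± 0.20). In water DFR had 477, 396 and 460 in the mutant and 41.2, 40.1 and 33.8 in wild type, so its genotype difference was smaller with chitooctaose (change of -1.25 ± 0.28, adjusted p = 0.0054). The fifth gene, APL4, was not called in either.

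Lower in the mutant under both treatments, with no called difference between them, were 319 probe sets. QQS, a gene found only in Arabidopsis that affects starch content, had 393, 393 and 332 in the mutant and 839, 1072 and 1068 in wild type with chitooctaose (-1.37 ± 0.10, adjusted p = 1.6e-08). In water QQS had 502, 485 and 518 in the mutant and 1213, 1316 and 1087 in wild type (-1.23). The leucine-rich repeat gene AT5G12940 (-1.36 ± 0.17), the extensin-type AT3G22800 (-1.28 ± 0.09), the germin-like AT1G18980 (-1.17 ± 0.15), the DUF26 gene AT3G22060 (-1.15 ± 0.15) and the dirigent-like AT3G13650 (-1.13 ± 0.10) followed. These were the 6 lowest genes of this kind.

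A further group was higher in the elicited mutant without being called higher in water. With chitooctaose AT5G03230 had 1273, 1296 and 1146 in the mutant and 210, 311 and 282 in wild type. In water AT5G03230 had 886, 810 and 854 in the mutant and 1191, 1248 and 1022 in wild type, a difference of -0.43, and the change between treatments was 2.59 ± 0.16 (adjusted p = 3.4e-09). The lowest of its 4 groups was elicited wild type. AT1G04770, known as SDI2 and linked to sulfur deficiency, had 1580, 1841 and 1730 in the mutant and 367, 431 and 396 in wild type with chitooctaose. In water AT1G04770 had 2267, 2396 and 2601 in the mutant and 2058, 2049 and 2203 in wild type, a difference of 0.20 that was not called. Here too elicited wild type was the lowest group. Within the mutant AT1G04770 was also called lower with chitooctaose than in water (-0.49 ± 0.08, limma adjusted p = 0.0036). AT1G69570, which encodes the Dof factor CDF5, was higher by 1.66 ± 0.12 with chitooctaose and not called in water (0.31, change of 1.36 ± 0.16). In all, 438 of the 1768 higher probe sets were not called in water and had a called difference in the same direction. Another 905 were called neither in water nor for the difference, with a median fold change of 0.40 with chitooctaose.

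Calls of opposite direction in the treatments numbered 94 higher and 124 lower with chitooctaose, and in each case the difference between treatments was called. Calls of opposite sign with equal standard errors all but fix that outcome, so it adds no support. AT2G20670 had 998, 1162 and 951 in the mutant and 324, 457 and 429 in wild type with chitooctaose (1.34 ± 0.11). In water it had 1643, 1509 and 1739 in the mutant and 2537, 2599 and 2344 in wild type (-0.61). XERICO, a RING protein that raises abscisic acid levels, had 595, 605 and 525 in the mutant and 244, 224 and 255 in wild type with chitooctaose (1.20 ± 0.08), and was lower by a small amount in water (-0.33). WAG2 behaved alike, at 1.17 with chitooctaose and -0.61 in water. In the other direction, AT5G39670, a calcium-binding EF-hand gene, had 147, 170 and 100 in the mutant and 1658, 2096 and 1696 in wild type with chitooctaose (-3.58 ± 0.14). In water AT5G39670 had 137, 149 and 146 in the mutant and 99.1, 94.3 and 95 in wild type (0.51, adjusted p = 0.023). AT1G56060, of the CYSTM family of small membrane proteins, was at -2.97 ± 0.12 with chitooctaose and 0.66 in water, and AT2G39650 at -2.90 ± 0.10 and 0.48.

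Position was described with gene order alone, around CERK1, which the labels do not name as the mutated gene. Of the 20 genes on each side of CERK1, 21 were measured in all, and 6 were higher and 2 lower in the elicited mutant, beside 6.88% higher and 8.61% lower among all 13350 genes. This window was chosen after the values were seen. The gene next to CERK1, AT3G21620, averaged 71.4 ± 6.06 in the mutant and 11.3 ± 5.21 in wild type with chitooctaose (SD, n = 3 each), a change of 1.70 ± 0.19 (adjusted p = 3.4e-06), and was higher by 1.71 in water. ICL lies 9 genes from CERK1.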

How the data were processed

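RNA of whole seedlings was measured on 12 one-colour Affymetrix arrays, with biotinylated cRNA made from 8 ug of total RNA per the labels' protocols. The authors deposited linear intensities, with 1 value for each probe set. For summary, background correction and scaling, the sources used here give no method. The 64 control probe sets were left out. Values were taken as log2(intensity + 16) without further scaling. A linear model with 1 mean per group over all 12 arrays was fitted in R 4.3.3 by limma 3.58.1 (lmFit, then eBayes with trend = TRUE; degrees of freedom were 8 residual and 8.33 prior). Tests were two-sided and p-values were Benjamini-Hochberg adjusted over 22746 probe sets within a comparison. The number of arrays limits the precision. Arrays are titled biological replicates, and no batch is given. With 3 arrays against 3 a permutation test of 1 value cannot give a two-sided p under 0.1.

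The annotation ties 13513 probe sets to 1 gene (13350 genes), 503 to several and 8730 to none, which are unnamed here. Of the 13513, 13436 matched the TAIR10.1 gene table, used for names and gene order only, and 77 kept the annotation's symbol. The brightest probe set over the 12 arrays stood for a gene with several. Lists were drawn from symbols, synonyms and loci. A few mismatched entries (a chloroplast gene and a peroxiredoxin) were removed once the annotation was seen. The lists for MYB factors and for camalexin had no measured member.

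Genes named outside the lists are called, tied to 1 gene and have mutant and wild type arrays that do not overlap. They are the 14 lowest and 10 highest fold changes, the 6 lowest and 6 highest shared with water with no called difference, the 8 highest with a called difference from water, and the 4 lowest and 4 highest of opposite direction in water. In each list up to 4 members with the largest called change were named, or, for lists with no call, the 2 members of lowest p, in either case without the rule on overlap. Other list members and the CERK1 neighbours were named after their values were seen. The members and lists were chosen with earlier results of these data known. The alternatives tried were a fit without the variance trend, one with only the groups compared, one with replicate number as a block, pseudocounts of 1 or 64, median centring, quantile normalization, removal of the dimmest 40%, and removal of each array. Scripts were tested on simulated data. Figures were drawn by matplotlib 3.10.9 from tables made in pandas 2.3.3 (Python 3.11.15).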

Additional observations from a re-analysis of the deposited data

Results flagged for a closer look

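The genotype difference with chitooctaose was set against the genotype difference in water by a direct test, which called 2565 probe sets. Values here are the first minus the second on the log2 scale, so a negative value means that the mutant stood lower against wild type with chitooctaose than in water. Only genes named by the rules given above are grouped here. Other list members mentioned in the text, some of them with a called difference, are left out of the groups. Among the named genes that were lower in the elicited mutant, the following stood at -4 or below: AT1G07160 (-5.77), AT1G24140 (-5.04), AT1G66090 (-4.97), AT3G12910 (-4.86), WRKY53 (-4.81), CML37 (-4.69), AT5G46295 (-4.63), STZ (-4.53), AT3G02840 (-4.49), AT5G05300 (-4.37), AT4G37290 (-4.34), AT2G32030 (-4.31), AR781 (-4.28), AT3G01830 (-4.26), AT1G05575 (-4.23) and AT5G39670 (-4.09). WRKY53, STZ, CML37 and AT1G07160 are regulators of the early response that belong to this group.

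Between -4 and -2 were AT1G72920 (-3.96), AT2G18210 (-3.79), AT1G56060 (-3.64), AT2G39650 (-3.38), AT1G72900 (-3.05), PUB23 (-3.0), AT1G26380 (-2.99), PUB24 (-2.92), CML42 (-2.66), AT1G57630 (-2.46), AT1G26420 (-2.45), WRKY22 (-2.27) and AT1G33760 (-2.18). This group holds the U-box ligases PUB23 and PUB24 and 3 TIR-domain genes. Above -2 were AT4G01700 (-1.98), PUB22 (-1.93), CML23 (-1.87), CYP71B5 (-1.45), BIK1 (-1.41), AT4G20830 (-1.27), AT1G02360 (-1.22), XTH18 (-1.20), SAG101 (-1.17), PUB25 (-0.97), WRKY6 (-0.92), EXLA3 (-0.87), XTH19 (-0.58), CYP71B6 (-0.52) and AT2G43590 (-0.41).

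Among the genes named by those rules, the ones higher in the elicited mutant, but by less than in water, were DFR (-1.25) and AT1G80130 (-0.78). The list members CML41 (-1.16) and AT3G47480 (-0.52), which those rules did not name, were of this kind too. The next groups again hold only genes named by the rules. Higher in the elicited mutant, and by more than in water or with the opposite sign there, were AT5G03230 (2.59), AT2G20670 (1.95), AT1G04770 (1.86), WAG2 (1.77), AT5G61590 (1.61), AT2G28200 (1.57), XERICO (1.53), PDF1.2 (1.41), AT1G69570 (1.36), AT1G17960 (1.15), GH3.3 (0.96), AT2G04070 (0.90) and AT1G19960 (0.62). Lower in the elicited mutant, but by less than in water, were AT1G49570 (0.63), AT5G48570 (0.56) and AT3G10020 (0.53). No explanation of these values was tested.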

How the results depend on the processing

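None of the named genes that were called changed direction under the alternatives run. The number of probe sets higher in the mutant was the least stable count: 1768 with all arrays, 3584 after quantile normalization, 2768 after median centring and 1084 with only the groups compared. The number at least 2-fold higher was 157, and 85 with a pseudocount of 64. Quantile normalization moved the median of all probe sets to 0.05 and median centring to 0.03. Leaving out each array in turn gave 3181 to 4363 called probe sets, 1181 to 1781 higher, 1686 to 2823 lower, 141 to 166 at least 2-fold higher, 654 to 724 at least 2-fold lower and 248 to 280 at least 4-fold lower. It gave 2029 to 3215 for the difference between treatments and 1583 to 1932 in water. The cause of these shifts was not tested. Same-numbered mutant and wild type arrays had residual correlations of 0.06, 0.14 and 0.01 in chitooctaose, so the numbers were not taken to pair the samples. With the replicate block 4062 probe sets were called, 1844 higher and 2218 lower, 2652 for the difference between treatments and 2457 in water. Over the 98 named genes 1314 gene and setting combinations kept their call or lack of one, 32 in 7 genes lost it and 8 in 5 genes gained it. Quantile normalization gave 5 called cytochromes P450 where all arrays as deposited gave 3, and 8 called wall genes where they gave 5. Without the dimmest 40%, a setting that can drop members, 4 calcium genes were called, where all probe sets gave 5 lower and 2 higher. It left 1 called AP2/ERF gene, where all probe sets gave 1 lower and 1 higher. Alternatives for the 4-fold count and for list counts were chosen after seeing the data. A planned search of promoters for motifs was not run, since no promoter sequences were used here.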

Other observations

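Some genotype differences seen in water were not called with chitooctaose. Of the 2351 probe sets called in water, 1285 (54.7%) were not called in chitooctaose, and 577 of these 1285 (44.9%) had a called difference between treatments. As genes with a probe set of their own, those with a called difference numbered 312, of which 108 were higher and 204 lower in the mutant in water. Of 27 wall remodelling genes, 5 were called lower in the mutant with chitooctaose and 10 in water. Over all probe sets the shares called lower were 9.5% with chitooctaose and 6.3% in water, and over all genes 8.61% with chitooctaose. For these 27 genes the difference between treatments was called with the higher value in chitooctaose for 5 and the lower for 3, and no test was made for the list. The heat shock gene AT1G54050 averaged 181 ± 29.2 in the mutant and 196 ± 39.6 in wild type with chitooctaose (SD, n = 3 each), where it was not called (-0.10 ± 0.13), and was lower in the mutant in water, at -1.46. Its change between treatments was 1.36. AT1G54050 was picked after its values were seen.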
